A study of Homo sapiens with 16 samples.

Results

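Interferon-stimulated genes are studied here as a set of 44 genes chosen by name, out of 58676 gene identifiers counted in every library. The set holds effector genes that interferon switches on, together with some of the STAT and IRF factors that switch them on. They were followed in A549 cells, which come from a lung carcinoma, and in SUM159 cells, a line of triple-negative breast carcinoma, both human. Cells of each line were left untreated (UT) or received 2 µM palbociclib (PD), 3 µM indisulam (IN) or both at these doses (P+I), for 16 h. Palbociclib is an inhibitor of CDK4 and CDK6. Indisulam is a sulfonamide that makes the splicing factor RBM39 a substrate of the DCAF15 ubiquitin ligase. No group was given interferon. Each of the 8 groups was 2 technical duplicates of 1 cell line, so that p-values measure the spread between these libraries and not that between independent cultures.

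Type I and type III interferons bind receptors at the cell surface, which activate the JAK1 and TYK2 kinases. These phosphorylate STAT proteins, STAT2 among them, which join IRF9 in a complex that binds the interferon-stimulated response element (ISRE) of target promoters. The proteins made from these targets block viruses at entry, translation and release, sense foreign RNA, and tag other proteins with the ubiquitin-like modifier ISG15. Many cancer cell lines carry a standing level of such transcripts without added interferon.

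Gene counts per library lay between 18306636 and 34075588. Levels are given as CPM, which are counts relative to a library size adjusted by TMM (trimmed mean of M-values), and 3 reads in a library corresponded to between 0.0880 and 0.164 CPM, which covers counting error only. A change was called at an adjusted p-value under 0.05 in edgeR's quasi-likelihood test. Where libraries of different groups are said to lie apart, this describes them and adds no support to a call. The share of all genes whose libraries lay apart was not worked out. Of the 44 genes, 40 passed the filter on low counts in A549 and 43 in SUM159. MX2, RSAD2, XAF1 and DHX58 were too low for a test within A549, and CMPK2 within SUM159. Untreated A549 held the epithelial marker CDH1 (82.5 ± 1.32 CPM, SD, n = 2), whereas the lung lineage genes SFTPB (0 reads in both libraries) and NKX2-1 (2 and 1 reads) had under 3 reads in each library. Untreated SUM159 held the mesenchymal marker VIM (3823 ± 101 CPM, SD, n = 2), with 0 reads of PGR in both libraries and 0.363 and 0.408 CPM of ESR1. ERBB2, the third gene of the breast receptor list, was at 92.5 and 95.5 CPM there and at 114 and 109 in untreated A549. Not all markers split the lines cleanly. Of the other A549 markers looked at, AKR1B10 was at 6675 and 6504 CPM in untreated A549 and 3.13 and 3.22 in untreated SUM159. EPCAM was at 27.0 and 25.2 CPM against 0.0907 and 0.408. The SUM159 markers ZEB1 (35.9 and 38.0 CPM in untreated A549, 58.7 and 63.1 in untreated SUM159) and CD44 (475 and 480, 1004 and 1007) were present in both lines. VIM was also at 960 and 954 CPM in untreated A549. The epithelial keratin KRT8 was at 582 and 596 CPM in untreated SUM159, against 5452 and 5304 in untreated A549. CDH1 was at 0.136 and 0.317 CPM in untreated SUM159. The leukocyte gene PTPRC was at 3.85 ± 0.126 CPM (SD, n = 2) in untreated SUM159 and had 0 reads in both libraries of untreated A549. In bulk RNA such as this, fewer cells that express a gene and less RNA per cell cannot be told apart.

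The promoters of these genes were searched, on both strands, for the core of the ISRE, which is GAAA followed by any 2 bases and a second GAAA, and for that of the gamma-activated site (GAS), TTCNNNGAA. RefSeq start sites on GRCh38.p14 gave windows of 250 bases before to 50 after the start for 36 of the 44 genes. MX2, IRF7, OASL, DHX58, OAS2, IFIT2, USP18 and IFITM2 had none. An ISRE core stood in at least 1 window of 23 of the 36 genes (63.9%), against 4.38% of all 27305 genes with a window. A GAS core stood in 10 of the 36 (27.8%), against 9.38% of all genes. The 250 bases before the start site are printed for 6 members that the results turn on, with ISRE cores, in either orientation, in capitals. ISG15 (ENSG00000187608, chr1:1013247-1013496, plus strand) codes for the modifier itself. IFIT1 (ENSG00000185745, chr10:89392373-89392622, plus strand) codes for a protein that binds viral RNA. IFI44L (ENSG00000137959, chr1:78620198-78620447, plus strand) is widely used as a marker of interferon exposure. HERC5 (ENSG00000138646, chr4:88456869-88457118, plus strand) codes for the ligase that attaches ISG15. OAS1 (ENSG00000089127, chr12:112906712-112906961, plus strand) and OAS3 (ENSG00000111331, chr12:112938224-112938473, plus strand) code for synthases of oligoadenylates that activate RNase L.
ISG15: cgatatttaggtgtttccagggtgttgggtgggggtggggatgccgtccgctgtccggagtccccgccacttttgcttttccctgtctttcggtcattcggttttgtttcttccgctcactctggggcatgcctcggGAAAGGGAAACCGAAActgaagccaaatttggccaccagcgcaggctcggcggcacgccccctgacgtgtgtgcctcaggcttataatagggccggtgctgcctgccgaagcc
IFIT1: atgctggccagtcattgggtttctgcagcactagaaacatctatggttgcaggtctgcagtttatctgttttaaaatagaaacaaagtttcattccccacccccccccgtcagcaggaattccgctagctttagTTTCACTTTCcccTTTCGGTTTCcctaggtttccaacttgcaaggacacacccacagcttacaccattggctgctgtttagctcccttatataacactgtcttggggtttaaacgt
IFI44L: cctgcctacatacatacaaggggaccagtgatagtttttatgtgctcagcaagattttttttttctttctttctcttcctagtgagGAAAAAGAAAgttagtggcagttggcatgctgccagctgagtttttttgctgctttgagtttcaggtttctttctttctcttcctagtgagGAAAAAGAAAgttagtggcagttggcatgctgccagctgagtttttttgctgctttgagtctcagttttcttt
HERC5: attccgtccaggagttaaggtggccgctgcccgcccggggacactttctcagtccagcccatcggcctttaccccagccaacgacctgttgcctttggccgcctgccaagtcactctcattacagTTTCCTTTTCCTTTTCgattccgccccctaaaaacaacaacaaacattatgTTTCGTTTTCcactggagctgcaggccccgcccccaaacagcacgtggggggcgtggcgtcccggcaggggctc
OAS1: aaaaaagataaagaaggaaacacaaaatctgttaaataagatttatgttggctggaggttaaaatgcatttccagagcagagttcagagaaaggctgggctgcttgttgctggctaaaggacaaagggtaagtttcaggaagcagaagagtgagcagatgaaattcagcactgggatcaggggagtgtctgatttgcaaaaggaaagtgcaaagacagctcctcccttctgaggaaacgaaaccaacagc
OAS3: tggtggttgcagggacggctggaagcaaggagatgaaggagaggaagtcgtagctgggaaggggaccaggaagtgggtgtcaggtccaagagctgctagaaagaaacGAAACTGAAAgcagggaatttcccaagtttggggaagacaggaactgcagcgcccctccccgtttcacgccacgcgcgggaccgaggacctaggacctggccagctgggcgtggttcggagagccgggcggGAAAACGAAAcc
In ISG15 and HERC5 some cores overlap each other. The OAS1 window has no match to the ISRE core as searched, and a GAS core that starts 168 bases before the start site. Near its end it holds gaaacgaaa, with 1 base between the repeats in place of 2, which the search could not match. Its neighbour OAS3 has ISRE cores that start 143 and 12 bases before the start site. A match of letters describes the window and does not show that a factor binds there, and the lack of a match does not show that none binds.

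The standing level of these genes differed widely between the untreated lines. In a fit of all 16 libraries, 31 of the 44 were higher in SUM159 (38.3% of all genes tested were higher) and 11 were lower (background 38.0%, and 76.3% in either direction). Of the 39 genes that passed the filter within both lines, 27 were higher and 10 lower. The median difference over the 44 was 1.63 on the log2 scale, against -0.01 over all genes. IFIT1 was at 5.97 and 5.30 CPM in the untreated A549 libraries and at 71.4 and 68.2 in those of SUM159, a log2 difference of 3.62 ± 0.09 (SE). IFIT3, a partner of IFIT1, was at 7.04 and 5.65 CPM in A549 and at 119 CPM in both libraries in SUM159 (4.22 ± 0.08). ISG15 was at 3.20 CPM in both libraries in A549 and at 20.3 and 22.0 in SUM159 (2.72 ± 0.15). For these genes the libraries of the lines did not overlap.

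Several members were close to absent in A549 and plain in SUM159. BST2, or tetherin, which holds budding viruses at the cell surface, had 5 and 2 reads in the untreated A549 libraries and 1455 and 1386 in SUM159. XAF1, a pro-apoptotic gene, had 1 and 0 reads against 288 and 232. OASL, a relative of the OAS enzymes without their activity, was at 0.693 and 0.757 CPM in A549 and at 82.6 and 83.1 in SUM159. IFI44 was at 0.533 and 0.408 CPM against 78.2 and 75.6. The RNA helicase DHX58 had 0 and 2 reads in A549 against 133 and 158 in SUM159, and the dynamin-like GTPase MX2 had 0 and 2 against 112 in both. MX1, its neighbour on chromosome 21, was at 1.17 and 0.874 CPM in A549 and 8.02 and 7.93 in SUM159.

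A few members stood the other way. OAS1 was at 191 and 193 CPM in untreated A549 and at 3.04 and 3.35 in untreated SUM159, a log2 difference of -5.91 ± 0.07 (SE), the largest in this direction among the 44. OAS3 was at 241 and 247 CPM against 65.1 and 67.6 (-1.88 ± 0.04), whereas OAS2, which lies beside it, was at 5.76 and 5.30 against 14.9 and 13.2 (1.34 ± 0.14). The exonuclease gene ISG20 was at 20.3 and 18.1 CPM against 2.22 and 3.22 (-2.82 ± 0.13). CMPK2, a mitochondrial nucleotide kinase, had 57 and 54 reads in A549 and 1 and 3 in SUM159, while RSAD2 (viperin), which overlaps it head to head on chromosome 2, had 5 and 6 reads against 22 and 29. STAT2 was at 39.4 CPM in both A549 libraries and at 28.0 and 27.0 CPM in SUM159 (-0.52 ± 0.12). IRF9 and IRF7 were not called between the lines. By FPKM, which is per length of exon, ADAR was first among the 44 in untreated A549, at 32.1, and IFITM3 was first in untreated SUM159, at 97.3.

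**Figure D1:**
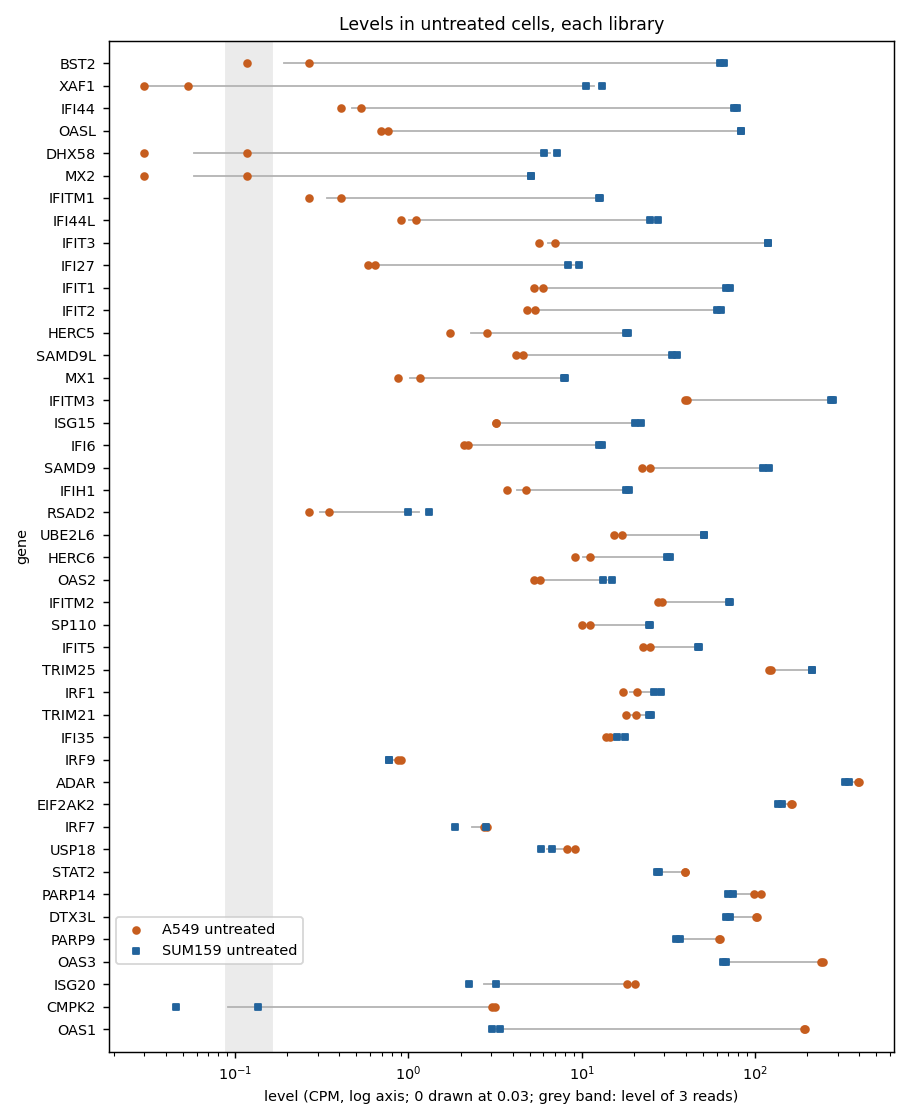
Level of the 44 genes in the untreated libraries, in CPM on a log axis, with 1 point per library and the lines in different colours, in order of the difference between the lines. XAF1, BST2 and IFI44 lie at 1 end, with A549 libraries under 1 CPM, and OAS1 at the other, at 191 and 193 CPM in A549 against 3.04 and 3.35 in SUM159.

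Transcripts of the interferon genes looked at (IFNB1, IFNE, IFNK, IFNL1, IFNL2 and IFNL3) were hardly seen. The IFNA genes, IFNW1 and IFNG were not looked at. IFNB1, IFNK and IFNL3 had 0 reads in all 16 libraries, and IFNL2 had 1 read and IFNL1 had 12, all in SUM159. IFNE, an interferon of epithelia, was the exception in A549, at 1.17 and 1.63 CPM in untreated libraries, 2.48 and 2.30 with indisulam and 2.33 and 3.80 with both drugs. Its increase was called with indisulam (log2 change 0.78 ± 0.28, SE) and with both drugs (1.13 ± 0.27) and not with palbociclib (0.70 ± 0.28). These calls were not checked with another tool or scaling or with a library left out. In SUM159 it had 2 reads over the 8 libraries. The receptor chain IFNAR1 was at 54.1 and 52.5 CPM in untreated A549 and 79.9 and 85.2 in untreated SUM159.

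Palbociclib groups held more of most of these transcripts in both lines. In A549, 28 of the 40 genes tested were higher (background 22.0%) and 2 were lower (background 21.1%, and 43.2% in either direction), or 20 and 2 with DESeq2. Of all genes that DESeq2 called there, 44.5% were higher, against 51.1% in edgeR. In SUM159, 23 of 43 were higher (background 25.5%) and 6 were lower (background 29.0%, and 54.5% in either direction). The median log2 change over the genes tested was 0.39 in A549, against 0.03 over all genes, and 0.23 in SUM159, against 0.02. Among the 39 genes tested in both lines, 18 were higher in both, and OAS3 and EIF2AK2 were lower in both. IFI44 and DTX3L were higher in A549 and lower in SUM159. The share of all genes called alike in both lines was not worked out, so these counts have no background. Of the 18, DESeq2 did not call IFIT1, IFI35 and TRIM21 (adjusted p = 0.123) in A549 or IFIH1 in SUM159 (0.0674). Scaling to total counts, which raised the median of all genes by 0.10 in SUM159, gave 29 higher and 5 lower there, and DTX3L was then not called (-0.05). Of all genes called in SUM159, 62.4% were higher with that scaling, against 46.8% with TMM.

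Among the regulators, STAT2 rose with palbociclib in both lines. In A549 it went from 39.4 CPM in both untreated libraries to 60.1 and 56.3 CPM, a log2 change of 0.58 ± 0.09 (SE), and in SUM159 from 28.0 and 27.0 to 59.4 and 65.9 CPM (1.11 ± 0.10). Treated and untreated libraries did not overlap in either line. IRF1, a factor that can bind ISRE-like sites on its own, was at 17.3 and 20.7 CPM in untreated A549 and at 20.8 and 24.0 with palbociclib (0.27 ± 0.10). This call was lost with DESeq2 (adjusted p = 0.130) and without untreated replicate 1 (0.14) or palbociclib replicate 2 (0.15). In SUM159 IRF1 was at 28.8 and 26 CPM untreated and 28.2 and 29.6 with palbociclib, which overlap. IRF7, an amplifier of interferon production, was at 2.72 and 2.85 CPM in untreated A549 and 1.46 and 1.98 with palbociclib, and at 2.81 and 1.86 against 1.79 and 1.82 in SUM159. IRF9, at 1.07 and 0.945 CPM with palbociclib in A549 and 1.16 and 0.909 in SUM159, was not called (log2 change 0.18 ± 0.45 and 0.33 ± 0.35), and nor was IRF7 (-0.63 ± 0.28 and -0.45 ± 0.25), although IRF7 was without untreated replicate 2 in SUM159 (-0.72).

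Of the IFIT family, whose products bind foreign RNA, 4 of 4 genes rose with palbociclib in A549 (background 22.0%). In SUM159 it was 3 of 4 (background 25.5%). DESeq2 did not call IFIT5 in A549 (adjusted p = 0.163). IFIT2 rose in A549 from 5.39 and 4.83 CPM to 8.16 and 9.66, a log2 change of 0.84 ± 0.14 (SE), and in SUM159 from 60.4 and 63.2 to 100 and 97.1 (0.60 ± 0.04). IFIT1 was at 7.43 and 8.03 CPM with palbociclib in A549 (0.48 ± 0.13) and at 112 and 100 in SUM159 (0.53 ± 0.05). The A549 change in IFIT1 was not called by DESeq2 (adjusted p = 0.0576) or without untreated replicate 2 (0.40) or palbociclib replicate 2 (0.42). IFIT3 was at 10.7 and 9.07 CPM in A549 (0.64 ± 0.13) and 142 and 134 in SUM159 (0.14 ± 0.04, not called without untreated replicate 2, at 0.13, or palbociclib replicate 1, at 0.10). IFI44L rose from 0.907 and 1.11 CPM to 2.53 and 2.24 in A549 (1.25 ± 0.26) and from 24.7 and 27.4 to 44.9 and 47.2 in SUM159 (0.75 ± 0.06). SAMD9L, a growth-restricting antiviral gene, rose from 4.16 and 4.60 CPM to 8.01 and 6.94 in A549 (0.78 ± 0.16) and from 33.3 and 35.2 to 46.9 and 50.6 in SUM159 (0.43 ± 0.06). For IFIT1, IFIT2, IFIT3, IFI44L and SAMD9L both palbociclib libraries lay above both untreated libraries of the line. The same held in A549 for IFI6, which was not called.

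The ISG15 system was less even, with 4 of 6 genes higher in A549 (background 22.0%). In SUM159 1 was higher (background 25.5%) and 1 was lower (background 29.0%). ISG15 was at 4.66 and 5.32 CPM with palbociclib in A549 (0.68 ± 0.17, SE), a call lost without palbociclib replicate 2 (0.56). In SUM159 it was at 21.0 and 26.3 CPM (0.09 ± 0.09), where 1 library lies within the untreated range, and it was called without palbociclib replicate 1 (0.24). UBE2L6, the E2 enzyme for ISG15, rose in both lines (0.44 ± 0.10 in A549 and 0.42 ± 0.05 in SUM159). USP18, which removes ISG15 from proteins, was called in neither (-0.15 ± 0.11 and 0.11 ± 0.11). The membrane proteins BST2, IFITM1, IFITM2 and IFITM3, which restrict virus entry or release, rose in both lines, although BST2 in A549 rested on 10 and 26 reads and IFITM1 on 18 and 27, and DESeq2 gave no adjusted p for either there. IFITM3 rose from 40.4 and 39.1 CPM to 57.0 and 61.2 in A549 (0.60 ± 0.06) and from 274 and 280.0 to 314 and 333 in SUM159 (0.15 ± 0.04). MX1 was at 1.17 and 1.36 CPM in A549 and 10.1 and 9.27 in SUM159, and was not called in either (0.34 ± 0.27 and 0.20 ± 0.10), although it was in SUM159 with total-count scaling (0.31).

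**Figure D2:**
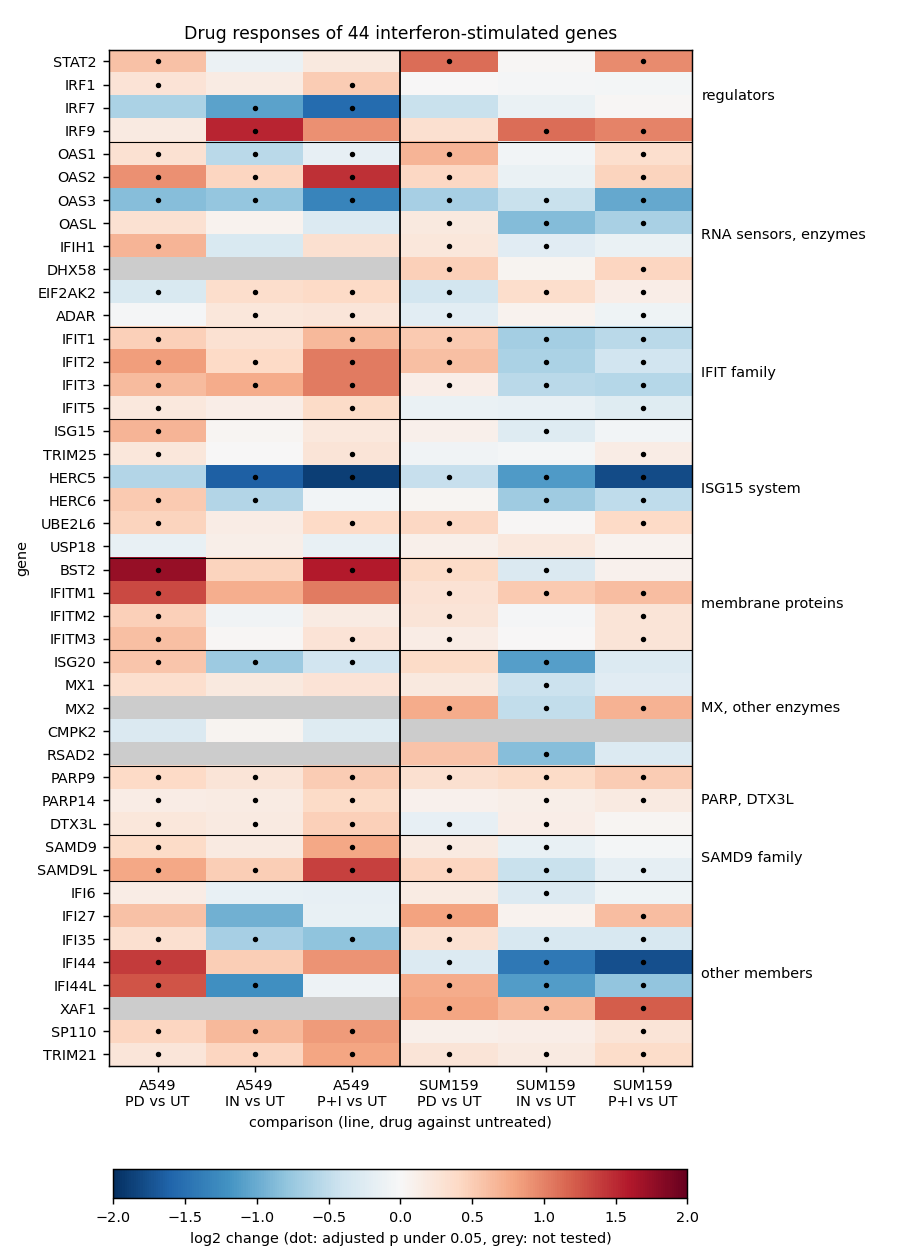
Log2 change of each of the 44 genes against untreated cells of the same line, for palbociclib (PD), indisulam (IN) and both drugs (P+I), grouped by role, with a mark where the adjusted p was under 0.05. In the palbociclib columns 28 of 40 genes in A549 and 23 of 43 in SUM159 were higher, in the indisulam column of SUM159 20 of 43 were lower, and OAS3 was lower in all 6 columns.

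With indisulam more of these genes were lower than higher in SUM159. In SUM159, 20 of 43 genes were lower (background 24.9%) and 8 were higher (background 21.9%, and 46.9% in either direction). In A549, 8 of 40 were lower (background 25.9%) and 12 were higher (background 23.3%), and the 20 called in either direction are close to the background of 49.2%. DESeq2 gave 8 higher and 7 lower in A549, and 5 higher and 16 lower in SUM159. Of all genes that DESeq2 called, 43.8% were higher in A549 and 40% in SUM159, against 47.3% and 46.8% in edgeR. The median log2 change was -0.13 in SUM159 and 0.14 in A549, against 0.01 over all genes in both. Among the 39 genes tested in both lines, IFI35, IFI44L, ISG20, OAS3, HERC5 and HERC6 were lower in both, and IRF9, PARP9, PARP14, TRIM21, EIF2AK2 and DTX3L were higher in both. DESeq2 did not call PARP14 in A549 (adjusted p = 0.0785), nor PARP14 (0.184), TRIM21 (0.136) or DTX3L (0.141) in SUM159. IFIT2, IFIT3 and SAMD9L were higher in A549 and lower in SUM159. For indisulam too, the share of all genes called alike in both lines was not worked out. With total-count scaling 17 were lower and 10 higher in SUM159, where ISG15, IFIH1 and SAMD9 were no longer called. Of all genes called in SUM159, 57.8% were higher with that scaling, against 46.8% with TMM.

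In SUM159 the lower level with indisulam was called for 3 of the 4 IFIT genes, not for IFIT5 (-0.14 ± 0.06), for IFI44 and IFI44L, and for MX1, MX2, RSAD2 and ISG20, the 4 antiviral GTPases and enzymes tested there. Over all genes 24.9% were lower in this comparison. The call of RSAD2 was lost with DESeq2 (adjusted p = 0.111). IFIT1 fell from 71.4 and 68.2 CPM to 43.0 and 44.2 (log2 change -0.68 ± 0.06, SE) and IFIT2 from 60.4 and 63.2 to 39.5 and 40.1 (-0.64 ± 0.05). IFIT3 went to 82.6 and 81.3 CPM (-0.54 ± 0.04). IFI44, named for its induction by interferon, fell from 78.2 and 75.6 CPM to 28.0 and 29.5 (-1.42 ± 0.06), and IFI44L from 24.7 and 27.4 to 11.5 and 12.4 (-1.12 ± 0.08). SAMD9L fell to 24.5 and 25.9 CPM (-0.45 ± 0.06). ISG20 fell from 2.22 and 3.22 CPM to 1.25 and 1.27 (-1.11 ± 0.23) and MX1 from 8.02 and 7.93 to 6.11 and 5.83 (-0.42 ± 0.11). Treated and untreated libraries of SUM159 lay apart for all of these genes. ISG15 was at 18.1 and 17.6 CPM (-0.25 ± 0.10), a call lost with DESeq2 (adjusted p = 0.0573), with total-count scaling (-0.20) and without any 1 of the 4 libraries (-0.30 to -0.20). XAF1 went the other way, from 13.1 and 10.5 CPM to 17.0 and 19.9 (0.65 ± 0.10).

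In A549, 2 of the 4 IFIT genes were called higher with indisulam (background 23.3%) and 0 lower (background 25.9%). So few genes cannot be told from these shares. IFIT3 rose from 7.04 and 5.65 CPM to 10.7 CPM in both libraries (log2 change 0.74 ± 0.13, SE). IFIT2 was at 6.73 CPM in both libraries (0.39 ± 0.15), OAS2 at 7.96 and 7.04 CPM (0.44 ± 0.14) and SAMD9L at 5.44 and 6.82 (0.48 ± 0.17). DESeq2 did not call IFIT2, OAS2 or SAMD9L (adjusted p = 0.137, 0.0649 and 0.0796). The call of IFIT2 was lost without any 1 of the 4 libraries (0.32 to 0.48), that of OAS2 without untreated replicate 2 (0.39) or indisulam replicate 1 (0.35), and that of SAMD9L without untreated replicate 1 (0.42), untreated replicate 2 (0.56) or indisulam replicate 2 (0.32). IFI44L was at 0.265 and 0.587 CPM (-1.23 ± 0.39), not called by DESeq2 (adjusted p = 0.0653) or without untreated replicate 2 (-1.08) or indisulam replicate 1 (-0.76). IFIT1 (7.04 and 6.91 CPM, 0.30 ± 0.14), MX1 (1.15 and 1.22 CPM, 0.20 ± 0.28), ISG15 (3.54 and 3.02 CPM, 0.04 ± 0.19) and IRF1 (19.4 and 23.2 CPM, 0.16 ± 0.11) were not called.

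HERC5 fell with indisulam in both lines. In A549 it went from 2.83 and 1.75 CPM to 0.664 and 0.813, a log2 change of -1.64 ± 0.31 (SE), and in SUM159 from 18.5 and 18.0 to 7.81 and 8.89 (-1.13 ± 0.09). OAS1 fell in A549, to 134 and 132 CPM (-0.53 ± 0.04), and was at 3.03 and 3.12 in SUM159, which overlaps the untreated 3.04 and 3.35. IRF9, the DNA-binding part of the STAT complex, was low throughout, at 0.907 and 0.874 CPM in untreated A549 and 2.21 and 2.93 with indisulam (1.52 ± 0.38). In SUM159 it was at 0.771 and 0.770 CPM untreated and 1.52 and 1.84 with indisulam (1.12 ± 0.32, not called without indisulam replicate 2, at 0.98). The exons of IRF9 overlap those of another annotated gene on the same strand, so that its count is uncertain, and the same holds for IFIT2, IFI6, TRIM25, IFITM1 and IFITM2. Exons of ISG15, IFIT3, MX1, OAS1, IRF1, PARP9, DTX3L, CMPK2 and RSAD2, among others, overlap a gene on the opposite strand, and whether the counting used strand is not given in the sources used here. IRF7 fell in A549, to 1.37 and 1.26 CPM (-1.08 ± 0.30, not called without indisulam replicate 2, at -1.01), and was at 1.63 and 2.58 in SUM159. STAT2 was at 34.0 and 38.4 CPM with indisulam in A549 (-0.12 ± 0.10) and at 27.8 and 28.4 in SUM159 (0.03 ± 0.11).

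**Figure D3:**
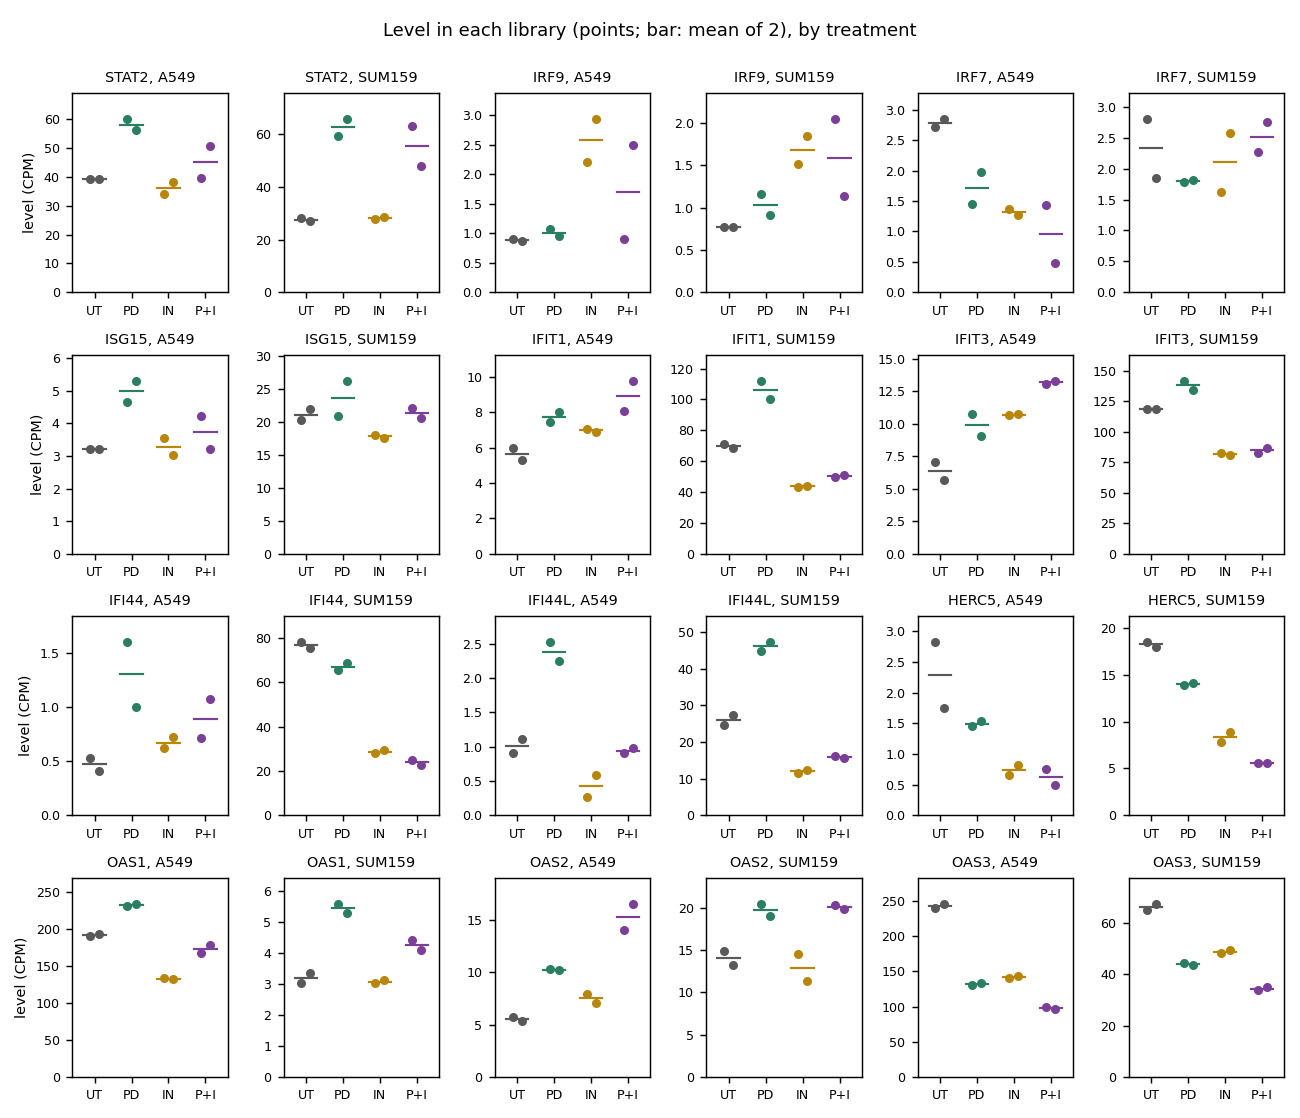
Level in CPM of 12 of the genes in each library, with 1 point per library, by group and line. STAT2 is at 60.1 and 56.3 CPM with palbociclib in A549 and 59.4 and 65.9 in SUM159, IFIT3 with indisulam lies below untreated in SUM159 and above it in A549, and the duplicates of IRF9 with both drugs in A549 lie apart (0.905 and 2.49).

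With both drugs, 19 of 40 genes were higher in A549 (background 27.4%) and 6 were lower (background 30.4%, and 57.8% in either direction). In SUM159, 18 of 43 were higher (background 32.2%) and 13 were lower (background 33.1%, and 65.3% in either direction). Total-count scaling, which raised the median of all genes by 0.15 in SUM159, made this 21 higher and 9 lower. Of all genes called in SUM159, 64.3% were higher with that scaling, against 49.3% with TMM. The median log2 change was 0.30 in A549 and 0.02 in SUM159. SAMD9L rose in A549 from 4.16 and 4.60 CPM to 10.3 and 12.5 (1.37 ± 0.15, SE) and OAS2 from 5.76 and 5.30 to 14.1 and 16.6 (1.46 ± 0.12). IFIT2 rose to 11.4 and 9.75 CPM (1.04 ± 0.14), IFIT3 to 13 and 13.3 (1.04 ± 0.13) and IFIT1 to 8.10 and 9.80 (0.65 ± 0.13). In these 5 genes the combination libraries of A549 lay above both untreated ones.

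In SUM159 the IFIT genes were below their untreated level with both drugs. IFIT1 was at 49.9 and 51.2 CPM (-0.54 ± 0.06, SE), IFIT2 at 49.3 and 50.7 (-0.38 ± 0.05) and IFIT3 at 82.5 and 87.0 (-0.57 ± 0.04). IFI44 fell to 24.9 and 22.7 CPM (-1.76 ± 0.06) and IFI44L to 16.2 and 15.6 (-0.79 ± 0.07). HERC5 fell to 5.56 and 5.63 CPM (-1.78 ± 0.09), and in A549 to 0.762 and 0.487 (-1.88 ± 0.33). XAF1 rose to 29.8 and 27.4 CPM (1.21 ± 0.10), the largest increase among the members tested there, after 22.1 and 21.2 with palbociclib (0.80 ± 0.10). OAS2 rose to 20.4 and 19.9 CPM (0.44 ± 0.10). SAMD9L was at 32.5 and 31.1 CPM (-0.18 ± 0.06), a call lost with total-count scaling (-0.04), with DESeq2 (adjusted p = 0.0529) and without untreated replicate 2 (-0.15) or combination replicate 2 (-0.16).

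Some regulators were uneven between duplicates in the combination groups. STAT2 was at 63.2 and 47.8 CPM in SUM159 (0.94 ± 0.10, SE) and at 39.8 and 50.9 in A549 (0.19 ± 0.10). The A549 change was called without combination replicate 1 (0.36) and with total-count scaling (0.28). IRF9 was at 0.905 and 2.49 CPM in A549 (0.91 ± 0.42), called without combination replicate 1 (1.47). SUM159 libraries held 2.05 and 1.13 CPM of IRF9 (1.00 ± 0.32), a call lost without combination replicate 1 (0.48), untreated replicate 1 (1.00) or untreated replicate 2 (0.99). IRF7 fell in A549 to 1.43 and 0.487 CPM (-1.53 ± 0.33) and was at 2.27 and 2.76 in SUM159 (0.02 ± 0.23). IRF1 rose in A549 to 27.1 and 27.2 CPM (0.51 ± 0.11) and was at 28.5 and 28.1 in SUM159 (-0.03 ± 0.06), within the untreated range. Neither ISG15, at 4.24 and 3.22 CPM in A549 and 22.2 and 20.7 in SUM159, nor MX1, at 1.29 and 1.22 and 7.23 and 7.14, was called with both drugs.

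Each drug was also compared on top of the other. Adding palbociclib to indisulam gave 21 of 40 genes higher in A549 (background 18.6%) and 1 lower, OAS3 (background 20.1%, and 38.8% in either direction). In SUM159, 21 of 43 were higher (background 24.9%) and 5 lower (background 28.0%, and 52.9% in either direction), or 29 and 4 with total-count scaling. Of all genes called in SUM159 there, 62.3% were higher with that scaling, against 47.1% with TMM. STAT2 rose in both lines in this comparison (log2 change 0.32 ± 0.09, SE, in A549 and 0.92 ± 0.09 in SUM159), as did IFI44L (1.13 ± 0.39 and 0.34 ± 0.08). Adding indisulam to palbociclib gave 10 higher and 13 lower of 40 in A549 (background 23.7% and 27.8%, and 51.5% in either direction), and 10 higher and 19 lower of 43 in SUM159 (background 23.4% and 24.9%, and 48.3% in either direction). Those lower in SUM159 included IFI44L (-1.53 ± 0.06), IFI44 (-1.49 ± 0.06), IFIT1 (-1.07 ± 0.05) and IFIT2 (-0.98 ± 0.04). These comparisons share libraries with those against untreated cells.

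A departure of the combination from the sum of the single drugs was called for 3 of 40 genes in A549 (background 3.53%) and 4 of 43 in SUM159 (background 4.37%). In A549 IFITM3 was below the sum (-0.36 ± 0.09, SE, background 2.05%) and OAS3 (0.32 ± 0.06) and EIF2AK2 (0.35 ± 0.07) were above it (background 1.49%). In SUM159 IFIT1 (-0.39 ± 0.08), IFIT2 (-0.34 ± 0.07) and IFI44L (-0.41 ± 0.10) were below (background 2.16%) and TRIM25 (0.25 ± 0.05) was above (background 2.21%). These few calls depended on single libraries. In A549 the count was 0 without untreated replicate 2, indisulam replicate 1 or indisulam replicate 2, and 1 without untreated replicate 1 or palbociclib replicate 2. In SUM159 it was 1 without indisulam replicate 2, and 2 without untreated replicate 1, indisulam replicate 1 or combination replicate 2.

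The responses of the lines were compared directly, as the change in SUM159 minus the change in A549. With palbociclib the difference was called for 9 of 44 genes (background 12.8%), with indisulam for 10 (background 15%) and with both drugs for 21 (background 30.8%). Of these, 6, 8 and 16 were negative (background 3.15%, 6.96% and 11.8%), and 3, 2 and 5 positive (background 9.66%, 8.04% and 19.0%). Over all genes the share of calls that were positive depended on the tool and scaling. It was 75.4% for palbociclib with TMM, 61.2% with total counts and 42.1% with DESeq2, and 61.8% with TMM and 44.6% with DESeq2 for both drugs. Over the 44 genes DESeq2 gave 1 positive and 8 negative for palbociclib, and the count for palbociclib was 17 without A549 palbociclib replicate 1.

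For indisulam the differences included IFI44 (log2 difference -1.92 ± 0.42, SE), IFIT3 (-1.28 ± 0.12), IFIT2 (-1.03 ± 0.14), IFIT1 (-0.98 ± 0.15) and SAMD9L (-0.93 ± 0.17). With both drugs they were -2.60 ± 0.40 for IFI44, -1.54 ± 0.12 for IFIT3, -1.49 ± 0.16 for SAMD9L, -1.36 ± 0.13 for IFIT2 and -1.13 ± 0.14 for IFIT1. IFI44 had 10 and 7 reads in the untreated A549 libraries, which limits the precision of its change there. STAT2 differed the other way, with palbociclib (0.63 ± 0.15) and with both drugs (0.82 ± 0.15), as did IRF7 with both drugs (1.62 ± 0.42). For HERC5 the differences were 0.23 ± 0.24, 0.52 ± 0.30 and 0.17 ± 0.32 for palbociclib, indisulam and both drugs, and none was called.

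**Figure D4:**
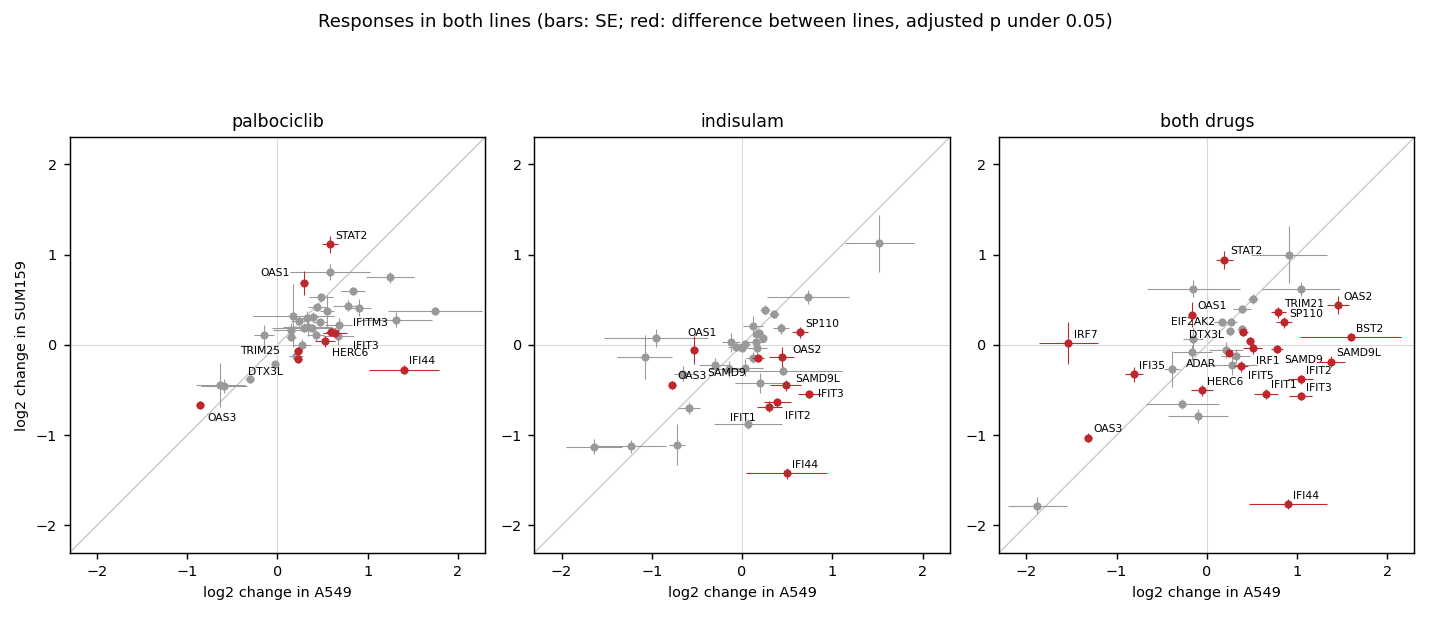
Log2 change in SUM159 (vertical axis) against that in A549 (horizontal axis) for the 39 genes tested in both lines, for palbociclib, indisulam and both drugs. Genes whose responses differed between the lines are coloured, and with indisulam and with both drugs IFI44, IFIT1, IFIT2, IFIT3 and SAMD9L lie to the lower right of the diagonal.

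Members that lie beside each other on a chromosome did not always move alike. In the OAS cluster of chromosome 12, which runs as OAS1, OAS3 and OAS2 from 112905856 to 113011723 (GRCh38), OAS3 fell with every treatment in both lines. In A549 it was at 241 and 247 CPM untreated, then 131 and 134 (PD), 141 and 144 (IN) and 99.6 and 96.8 (P+I), log2 changes of -0.86 ± 0.04, -0.78 ± 0.04 and -1.32 ± 0.04 (SE). In SUM159 it was at 65.1 and 67.6, 44.6 and 43.6, 48.2 and 49.7, and 33.8 and 34.9 CPM in the same order (-0.67 ± 0.05, -0.44 ± 0.05 and -1.03 ± 0.05). Every treated library lay below every untreated one of its line. OAS2, which starts 1935 bases further on, was called higher in 5 of these 6 comparisons. With palbociclib it rose to 10.3 and 10.2 CPM in A549 (0.91 ± 0.13) and 20.5 and 19.1 in SUM159 (0.41 ± 0.10), and with indisulam in SUM159 it was at 14.5 and 11.3 (-0.13 ± 0.11), which was called without indisulam replicate 1 (-0.32) and turned sign without replicate 2.

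OAS1, which ends 4832 bases before OAS3, rose with palbociclib in A549 to 231 and 234 CPM (0.30 ± 0.04, SE) and in SUM159 to 5.59 and 5.28 (0.69 ± 0.14). With both drugs it was at 167 and 178 CPM in A549 (-0.16 ± 0.04), not called with total-count scaling (-0.07) or without combination replicate 1 (-0.12). The same treatment gave 4.41 and 4.08 CPM in SUM159 (0.34 ± 0.14). The SUM159 call was lost with DESeq2 (adjusted p = 0.213), with the replicate number as a block (edgeR adjusted p = 0.0578), with no filter (0.0990) and without any 1 of the 4 libraries (0.27 to 0.40 on the log2 scale).

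On chromosome 1, IFI44L and IFI44 are 3651 bases apart on the same strand. Both rose with palbociclib in A549, IFI44 from 0.533 and 0.408 CPM to 1.60 and 1.00 (1.40 ± 0.38, SE), a call lost without untreated replicate 2 (1.23) or palbociclib replicate 1 (1.09). In SUM159 IFI44L rose (0.75 ± 0.06) while IFI44 fell, from 78.2 and 75.6 CPM to 65.4 and 68.7 (-0.27 ± 0.05). On chromosome 4, HERC6 lies 14022 bases before HERC5. With palbociclib HERC6 rose in A549 (0.53 ± 0.11) and was not called in SUM159 (0.04 ± 0.06). HERC5 was at 1.46 and 1.54 CPM in A549 (-0.59 ± 0.26, called without untreated replicate 2, at -0.89) and fell in SUM159 to 13.9 and 14.1 (-0.46 ± 0.08). In the IFIT cluster of chromosome 10 the genes called in any 1 comparison moved in the same direction, with IFIT5 between -0.24 and 0.38. PARP9 and DTX3L, which overlap head to head on chromosome 3, both rose in A549 in all 3 comparisons, and with palbociclib in SUM159 PARP9 rose (0.31 ± 0.05) and DTX3L was lower (-0.16 ± 0.04).

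**Figure D5:**
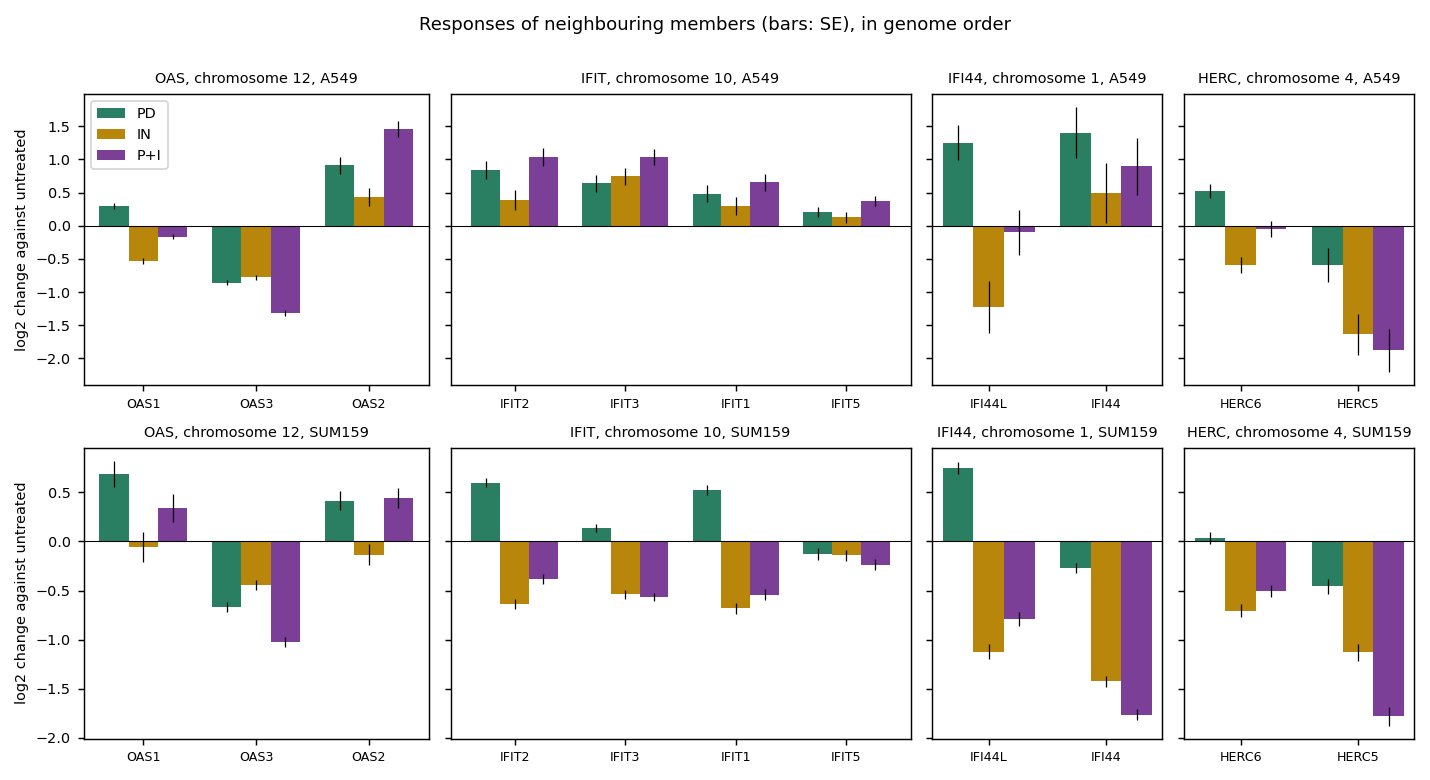
Log2 change against untreated cells (bars, with SE) of members that are neighbours in the genome, in genome order, for each line and for palbociclib (PD), indisulam (IN) and both drugs (P+I). OAS3 is below 0 in every case (from -1.32 to -0.44) between OAS1 and OAS2, and the IFIT genes are above 0 in A549 and below it with indisulam and with both drugs in SUM159.

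Further members had patterns of their own. EIF2AK2 (PKR), which stops translation on binding double-stranded RNA, fell with palbociclib (-0.30 ± 0.05 in A549 and -0.37 ± 0.04 in SUM159, SE) and rose with indisulam (0.35 ± 0.05 and 0.35 ± 0.04). ADAR, which edits double-stranded RNA, rose with indisulam in A549 (0.23 ± 0.04), and with both drugs it was higher there (0.25 ± 0.04) and lower in SUM159 (-0.09 ± 0.04), where total-count scaling turned its sign (0.06) and DESeq2 did not call it (adjusted p = 0.0651). IFI35 rose with palbociclib in both lines (0.32 ± 0.09, not called by DESeq2 at an adjusted p of 0.0800, and 0.30 ± 0.08) and fell with indisulam (-0.66 ± 0.10 and -0.32 ± 0.08). ISG20 rose in A549 with palbociclib, from 20.3 and 18.1 CPM to 26.5 and 28.7 (0.55 ± 0.08), and fell with indisulam to 11.9 and 11.5 (-0.72 ± 0.09) and with both drugs to 15 and 14.6 (-0.39 ± 0.09). In SUM159 it was at 3.65 and 3.78 CPM with palbociclib (0.38 ± 0.18, called with total-count scaling, at 0.48, and without untreated replicate 2, at 0.66) and 2.67 and 2.04 with both drugs (-0.27 ± 0.20).

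Genes with and without an ISRE core in their windows had medians of the same sign in A549. With palbociclib the median log2 change in A549 was 0.44 over 22 genes with a core and 0.31 over 12 without, and in SUM159 0.19 over 23 and 0.31 over 12. With indisulam in SUM159 it was -0.25 with a core, where 14 of 23 were lower, and -0.0015 without, where 3 of 12 were lower. Over all genes 24.9% were lower there. With both drugs in SUM159 the medians had opposite signs, -0.08 with a core and 0.20 without. OAS1, whose repeats are spaced by 1 base, was counted as without a core. These values describe the genes with a window and were not tested.

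The signalling genes around the 44 were taken as a list of 34 ligands, receptors, kinases, transcription factors, sensors and inhibitors, of which 27 were tested in each line. With palbociclib 8 were higher and 3 lower in A549 (29.6% and 11.1% of those tested, against 22.0% and 21.1% of all genes), and 8 higher and 5 lower in SUM159 (29.6% and 18.5%, against 25.5% and 29.0%). With indisulam these were 14 and 2 in A549 (51.9% and 7.41%, against 23.3% and 25.9%) and 12 and 3 in SUM159 (44.4% and 11.1%, against 21.9% and 24.9%). With both drugs they were 16 and 4 in A549 (59.3% and 14.8%, against 27.4% and 30.4%) and 14 and 4 in SUM159 (51.9% and 14.8%, against 32.2% and 33.1%).

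The sensors of nucleic acids did not all move alike. STING1, the adaptor for cytosolic DNA, rose in every comparison with untreated cells, from 1.23 and 1.46 CPM to 3.34 and 3.85 with both drugs in A549 (1.41 ± 0.21, SE) and from 23.1 and 21.1 to 53.9 and 52.7 in SUM159 (1.19 ± 0.06). CGAS, the sensor upstream of it, fell with palbociclib (-0.59 ± 0.15 and -0.68 ± 0.07) and with both drugs (-0.77 ± 0.16 and -1.15 ± 0.08). TLR3, a receptor for double-stranded RNA, rose in every comparison with untreated cells, with both drugs by 1.26 ± 0.09 in A549 and 0.85 ± 0.07 in SUM159. RIGI, a helicase that senses RNA ends, rose with palbociclib in both lines (0.63 ± 0.07 and 0.23 ± 0.06) and was not called with indisulam (0.17 ± 0.07 and -0.03 ± 0.06), although its exons overlap another gene on the same strand and its count is uncertain. ZBP1, a sensor of left-handed nucleic acids, had 0 reads in all 16 libraries.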

How the data were processed

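Poly(A) RNA of 16 libraries, 2 technical duplicates in each of 8 groups, was sequenced with a stranded kit. Per the labels and the study's methods, the authors trimmed reads with SeqPurge, aligned them to GRCh38 with HISAT2 2.2.1 and counted reads per Ensembl gene with HTSeq, and they deposited raw counts for 58676 genes. The HTSeq version and strand setting are not given in the sources used here. Rows that name no gene (13.2 to 16.4% of reads) were left out. Names, exon lengths and positions came from GENCODE 44 (58207 identifiers matched).

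Within each line, edgeR 4.0.16 (R 4.3.3; filterByExpr, TMM, quasi-likelihood F test, 1 coefficient per group) was fitted to 8 libraries, with 15744 genes tested in A549 and 16080 in SUM159. A fit of 16 libraries (17764 genes) gave the comparisons between lines and the CPM. P-values were adjusted by the Benjamini-Hochberg method over all genes tested. The departure from additivity is P+I minus PD minus IN plus UT. Alternatives were DESeq2 1.42.0, total-count scaling, no filter, the replicate number as a block, and leaving out each library. The scripts were tested on simulated data. Duplicates differed by more than sampling noise (chi-square per degree of freedom 1.59 to 9.13).

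The 44 members and all lists were chosen with earlier results of these data known. Values in every library were given for STAT2, IRF1, IRF7, IRF9, ISG15, IFIT1, MX1 and OAS1, and for members past the threshold against untreated cells whose log2 change was 1 or more in size and whose mean CPM in the line was 1 or more. Others were named after their values were seen, and pathway genes were named where called, except for a result that is not reported here. Promoter sequences are from RefSeq (GRCh38.p14).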

Additional observations from a re-analysis of the deposited data

Results flagged for a closer look

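Results in this part were picked out because the change with a drug differed between SUM159 and A549 in edgeR's test of the difference itself (adjusted p under 0.05); all values are SUM159 minus A549 on the log2 scale. The test called 9 members for palbociclib, 10 for indisulam and 21 for both drugs, against a background of 12.8%, 15% and 30.8% of all genes.

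For palbociclib the difference was positive for STAT2 (0.63), OAS1 (0.48) and OAS3 (0.29), and negative for IFIT3 (-0.40) and IFI44 (-1.57). DESeq2 did not call OAS1 (adjusted p = 0.0953) or OAS3 (0.0833) there. For indisulam it was negative for IFI44 (-1.92), IFIT3 (-1.28), IFIT2 (-1.03), IFIT1 (-0.98), SAMD9L (-0.93) and OAS2 (-0.57), and positive for OAS1 (0.48) and OAS3 (0.34). DESeq2 did not call OAS1 (0.0591) or OAS2 (0.0534) for indisulam.

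For both drugs it was negative for IFI44 (-2.60), IFIT3 (-1.54), SAMD9L (-1.49), IFIT2 (-1.36), IFIT1 (-1.13), OAS2 (-0.95) and IRF1 (-0.47), and positive for IRF7 (1.62), STAT2 (0.82), OAS1 (0.57) and OAS3 (0.36). OAS3 fell in both lines, and the difference is that it fell by less in SUM159.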

How the results depend on the processing

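Direction and side of the threshold were recomputed under each alternative for 105 changes of named genes and 16 counts of called members. Named genes here are the members whose values in every library were given by the rule above. Changes of single other members were looked at only with DESeq2 and total-count scaling, and those of pathway genes under no alternative. With total-count scaling 96 of the 105 were the same, 3 lost and 3 gained a call, and 3 uncalled changes in SUM159 turned sign, namely IRF1 with indisulam (0.023) and with both drugs (0.12) and ISG15 with both drugs (0.094); the cause was not tested. Over all genes, total-count scaling moved the share of called genes that were higher from 51.1 to 62.4% (A549, palbociclib), 47.4 to 57.7% (A549, both drugs), 48.1 to 61.1% (A549, both drugs against indisulam), 46.8 to 62.4% (SUM159, palbociclib), 46.8 to 57.8% (SUM159, indisulam), 49.3 to 64.3% (SUM159, both drugs) and 47.1 to 62.3% (SUM159, both drugs against indisulam). DESeq2 moved it from 42.1 to 53.9% for the departure in A549. DESeq2 kept 96 of the 105 the same and lost 9 calls, and with no filter 100 were the same.

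Leaving out 1 library turned the sign of these uncalled changes, given as ranges. In SUM159 they were STAT2 with indisulam (-0.0051 to 0.063), IRF1 with palbociclib (-0.076 to 0.085), indisulam (-0.11 to 0.052) and both drugs (-0.11 to 0.044), IRF7 with indisulam (-0.51 to 0.20) and both drugs (-0.26 to 0.35), ISG15 with palbociclib (-0.088 to 0.24), OAS1 with indisulam (-0.12 to 0.0085), OAS2 with indisulam (-0.32 to 0.047) and ISG20 with both drugs (-0.51 to 0.014). In A549 they were ISG15 with indisulam (-0.077 to 0.15) and both drugs (-0.00098 to 0.41) and IFI44L with both drugs (-0.24 to 0.045). Counts moved by over 1.5 times for the departure in A549 (0 to 4) and in SUM159 (1 to 5) and for the palbociclib difference between lines (6 to 17). Each such fit leaves a group with 1 library, which is assumed to vary like the others.

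Replicate numbers did not pair the libraries (correlations of deviations -0.114 to 0.114). With the replicate number as a block, the members called in A549 were 30, 20 and 25 for palbociclib, indisulam and both drugs, and 29, 27 and 29 in SUM159, and among the named genes the block ended 1 call (OAS1 in SUM159 with both drugs). With crossed numbers, added after seeing the data because the correlation was under -0.1, the members called for both drugs against palbociclib were 24 in A549 and 31 in SUM159. Under no alternative setting was the share of all tested genes that were called worked out, so counts of members under the alternatives have no such background.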

Other observations

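Inhibitors and kinases among the 34 pathway genes, counted above and not named there, were also called. PTPN2, a phosphatase that acts on JAK and STAT proteins, fell with palbociclib (log2 change -0.33 ± 0.06, SE, in A549 and -0.37 ± 0.06 in SUM159) and with both drugs (-0.33 ± 0.06 and -0.40 ± 0.06), and was not called with indisulam (-0.05 ± 0.06 and -0.02 ± 0.05). SOCS3, an inhibitor of JAK signalling, fell in SUM159 with each treatment (-0.33 ± 0.06, -0.16 ± 0.06 and -0.38 ± 0.06 for palbociclib, indisulam and both) and was called in no comparison with untreated cells in A549. NLRX1, a mitochondrial regulator of antiviral signalling, rose with indisulam in A549 (0.63 ± 0.11) and in SUM159 (0.66 ± 0.08). TBK1, the kinase that activates IRF3, rose with indisulam in both lines (0.68 ± 0.05 and 0.55 ± 0.05), with a count that is uncertain because its exons overlap another gene on the same strand. JAK2 also rose with indisulam (0.67 ± 0.07 and 0.34 ± 0.07).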
